A study of Mus musculus with 12 samples.

Results

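Neuropeptide Y and 3 of its receptors, Npy, Npy1r, Npy2r and Npy5r, were followed through 12 hypothalamus libraries. The genes were chosen by symbol, and each of the 4 has 1 row among the 32494 genes of the expression table. RNA sequencing was done on male mice, all with floxed Smc3 alleles and all treated with tamoxifen. Smc3 encodes a subunit of the cohesin ring, which folds DNA into loops and keeps sister chromatids paired. The WT group (n = 7) lacked the Camk2a-cre/ERT2 transgene (Cre-), and the cKO group (n = 5) carried it (Cre+). That transgene makes a tamoxifen-activated recombinase under the Camk2a promoter, which is active mainly in excitatory neurons of the forebrain. Sampling was 5 weeks after tamoxifen, and the labels give an age of 8 weeks without naming the step it refers to. The sample titles also call every mouse of both groups a control, a word that was not used. Mice are named by group and by the number in their title.

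Neuropeptide Y is a secreted peptide that strongly stimulates feeding when it is released by arcuate neurons of the hypothalamus that also make agouti-related peptide (Agrp). It is also made by scattered inhibitory neurons throughout the forebrain. Its receptors couple to inhibitory G proteins. The Y1 receptor (Npy1r) and the Y5 receptor (Npy5r) sit mostly on receiving neurons and both take part in the feeding response, whereas the Y2 receptor (Npy2r) is known as an autoreceptor on the terminals that release the peptide.

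Npy1r and Npy5r are neighbours on mouse chromosome 8 and are transcribed away from each other. In GENCODE M21 on build GRCm38, which may not be the annotation the authors used, Npy5r (ENSMUSG00000044014.9) lies at chr8:66679965-66688128 on the minus strand and Npy1r (ENSMUSG00000036437.6) at chr8:66697192-66706792 on the plus strand. Npy (ENSMUSG00000029819.6) is at chr6:49822710-49829507 on the plus strand and Npy2r (ENSMUSG00000028004.12) at chr3:82538383-82548084 on the minus strand. Each of the 4 spans overlapped 0 other annotated genes, so reads of a partner on the opposite strand do not enter these counts under that annotation.

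The promoters of the head-to-head pair are shown because one gene of the pair differed between the groups below and the other did not pass the test. They come from RefSeq on GRCm38.p6, where 4 of the 4 genes matched, and run from 250 bases before to 50 bases after the annotated start. The Npy1r window is chr8:66697172-66697471 on the plus strand and the Npy5r window chr8:66688045-66688344 on the minus strand, and their starts are 9328 bases apart. Capitals mark CCCTC, the letters that gave the cohesin partner CTCF its name, searched on both strands as CCCTC or GAGGG without overlap between matches.
Npy1r: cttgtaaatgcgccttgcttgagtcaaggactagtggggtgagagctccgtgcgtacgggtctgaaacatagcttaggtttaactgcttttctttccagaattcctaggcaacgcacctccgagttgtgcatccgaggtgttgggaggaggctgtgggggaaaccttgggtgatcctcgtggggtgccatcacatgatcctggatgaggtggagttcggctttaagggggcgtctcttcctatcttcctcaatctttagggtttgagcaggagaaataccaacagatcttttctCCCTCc
Npy5r: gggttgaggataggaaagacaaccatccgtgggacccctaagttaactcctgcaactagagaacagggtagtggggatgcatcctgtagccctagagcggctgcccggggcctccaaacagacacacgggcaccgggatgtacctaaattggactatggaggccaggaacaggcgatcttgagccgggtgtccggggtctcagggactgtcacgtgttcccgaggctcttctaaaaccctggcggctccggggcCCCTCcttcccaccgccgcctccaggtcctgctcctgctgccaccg
Each window held 1 match, on the strand of its gene, and 66.0% of the 32851 RefSeq promoter windows of this length held at least 1. The GC content was 51.7% in the Npy1r window and 61.7% in the Npy5r window.

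Smc3, the floxed gene, was read first as a check of the labels and went against them. CPM are the reads of a gene scaled by the library total times a normalization factor of that library. This factor ran from 0.987 (cKO 14) to 1.02 (WT 6). The WT mean of Smc3 was 81.6 ± 3.14 CPM (SD, n = 7). Its mean over the libraries labelled cKO was 131 ± 10.3 CPM (SD, n = 5), with no overlap. A total over the whole gene does not measure the deleted part by itself. An exchange of the group labels, which would turn every direction below, was not tested. Directions therefore refer to the labels and not to a shown loss of Smc3. The 11 shallower libraries held 17.1 to 24.0 M reads each and WT 1 held 68.7 M, and 3 reads, the smallest level taken as seen, were 0.0436 to 0.178 CPM. The labels give no batch.

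Markers that define hypothalamic tissue were present in unequal amounts. A list of 10 genes of hypothalamic neurons (Sim1, Otp, Avp, Oxt, Hcrt, Pmch, Nr5a1, Fezf1, Six6 and Nkx2-1) summed to between 67.1 and 207 CPM in WT 4, WT 5, cKO 12 and cKO 13. It summed to between 341 and 621 CPM in the other 8 libraries. Both groups held libraries of each kind. Agrp, the defining marker of the arcuate neurons that make neuropeptide Y, had a WT mean of only 0.875 ± 0.252 CPM (SD, n = 7) and a cKO mean of 0.673 ± 0.134 CPM (SD, n = 5). This was 11 to 65 reads per library and under the 1 CPM mean that a gene needed to be tested.

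The Y1 receptor gene fell in the libraries labelled cKO, and the peptide and the other 2 receptors did not pass the test. Npy1r was at 0.578 times its WT level and its groups did not overlap. The means of Npy were 1.18 times, of Npy2r 0.917 times and of Npy5r 1.08 times those in WT, and the groups of each overlapped. In tissue RNA, fewer cells that express a gene and less of its RNA per cell cannot be told apart.

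Npy1r was lowest at 13.6 CPM (WT 5), had a median of 17.2 CPM (WT 15) and was highest at 19.8 CPM (WT 11) in the libraries labelled WT. In those labelled cKO it was at 6.88 CPM (cKO 13), 7.46 CPM (cKO 12), 9.73 CPM (cKO 8), 10.1 CPM (cKO 9) and 13.5 CPM (cKO 14). All 5 lay below the lowest WT library, but cKO 14 did so only narrowly. The 228 reads of cKO 14 gave 13.5 CPM (95% Poisson interval 11.8 to 15.4), and the 292 reads of WT 5 gave 13.6 CPM (12.1 to 15.2), so these 2 libraries did not differ beyond counting error. These intervals cover counting error only. The other 4 libraries labelled cKO lay well below every WT library.

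The mean of Npy1r was 16.5 ± 2.35 CPM (SD, n = 7) against 9.54 ± 2.62 CPM (SD, n = 5). limma, run on log2(CPM + 1) over the 15359 genes whose mean reached 1 CPM, gave Npy1r a log2 fold change of -0.76 (SE 0.14, 95% interval -1.05 to -0.46, adjusted p-value 0.00640). On that scale, which understates changes of low genes, its change ranked 67th of all tested genes by size in either direction. The two-sided exact permutation p-value over the 792 splits of the mice was 0.00126, the smallest the design allows. The authors' deposited table lists Npy1r at -0.80 on the log2 scale with a false discovery rate of 7.33e-05, where 4.94% of its genes are under 0.05. At this threshold 14.1% of all tested genes passed, and 3.2% had groups that did not overlap with the libraries labelled cKO lower (6.73% in either direction), so 1 of 4 genes past the threshold is not itself a result about the group.

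**Figure D1:**
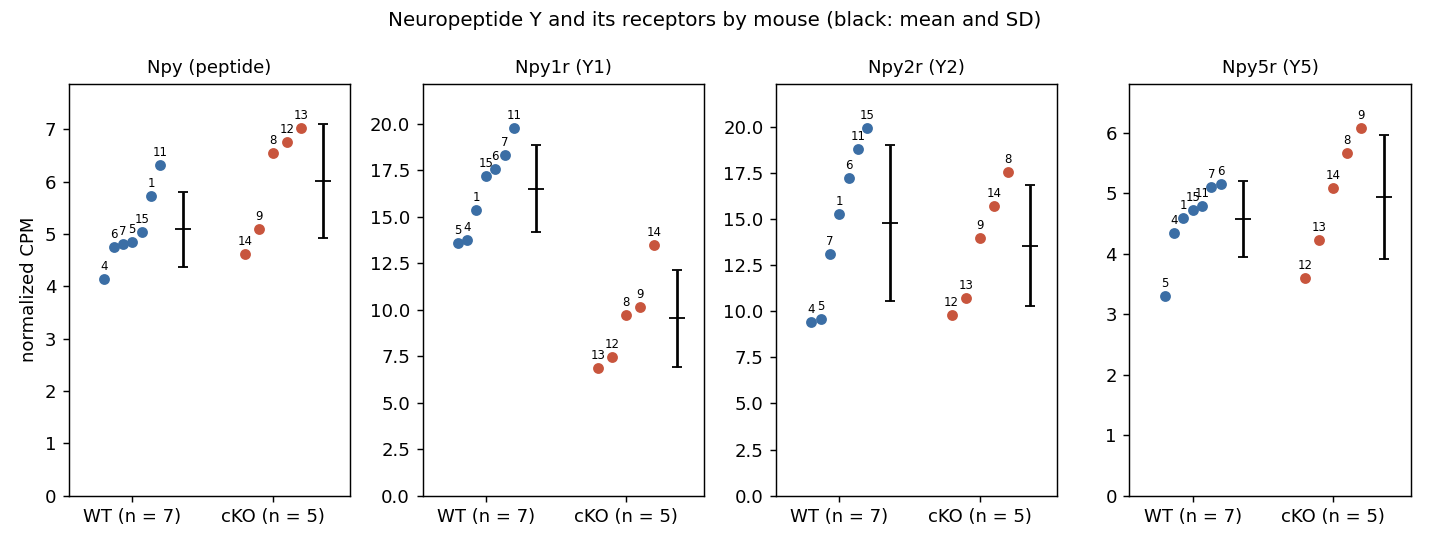
Normalized CPM of Npy, Npy1r, Npy2r and Npy5r in each mouse, with WT in blue (n = 7) and cKO in red (n = 5), mouse numbers at the points, and the mean and SD in black. Only the Npy1r panel has groups that do not overlap, with 13.5 CPM in cKO 14 just under 13.6 CPM in WT 5.

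A result for Npy1r stood beside a difference in markers of neighbouring thalamus. Of 8 thalamic markers, 4 were past the threshold and lower in the libraries labelled cKO (Prkcd, Rora, Ntng1 and Plekhg1) and 0 were higher. Of the 12 limma fits that left out 1 mouse, Prkcd and Rora passed in 12, Ntng1 in 8 and Plekhg1 in 3. Lef1, also lower, was just short of the threshold by limma (adjusted p-value 0.0504) and past it by edgeR (adjusted p-value 0.0474). The summed level of the 8 markers was 955 to 1621 CPM in the libraries labelled WT and 795 to 1121 CPM in those labelled cKO, and none of the 8 was at 0 in any library. With the mean log2 level of these markers as a covariate, the log2 fold change of Npy1r was -0.61 (SE 0.19, beside 0.14 without the covariate). Its adjusted p-value by limma was then 0.0808, no longer past the threshold. Over all 15359 tested genes, 637 passed with that covariate, beside 2172 without it. With the cortex, hippocampus and striatum markers added as well, the log2 fold change of Npy1r was -0.63 (SE 0.19, limma adjusted p-value 0.0639). Of those 11 markers, 0 of the 10 tested were past the threshold, and their sums overlapped, at 86.2 to 146 CPM and 72.4 to 120 CPM.

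A few markers of other lists also differed. Sim1, a transcription factor of hypothalamic neurons, was higher in the libraries labelled cKO (log2 fold change 0.56, limma adjusted p-value 0.0206), the only one of its 10 markers to pass. Stmn2, a neuronal protein that binds tubulin, was higher by 0.20 (limma adjusted p-value 0.0224), the only one of 5 neuronal markers. Col25a1, on the list of tanycytes and ependyma, was lower with groups that did not overlap (-0.60, limma adjusted p-value 0.00935), the only one of the 4 tested there. The other 3 (Foxj1, Ccdc153 and Tmem212) had log2 fold changes from 0.03 to 0.09 and did not pass, and the list median was 0.05. Col25a1, with a WT mean of 129 CPM, made up most of the sums of that list, which were 160 to 243 CPM in WT and 111 to 167 CPM in cKO. Of the 12 limma fits that left out 1 mouse, Sim1 passed in 10, Stmn2 in 11 and Col25a1 in 12. With the thalamic markers as a covariate, Sim1 was 0.50 (limma adjusted p-value 0.149) and Col25a1 -0.34 (limma adjusted p-value 0.162), neither past the threshold. Stmn2 was 0.28 with that covariate and still passed (limma adjusted p-value 0.0309). The part of Stmn2 and Col25a1 in the Npy1r result was not tested.

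The difference in Npy1r was of similar size where hypothalamic markers were taken into account. Without the 4 libraries in which those markers were low, a choice made after seeing the data, it was -0.63 (SE 0.11, limma adjusted p-value 0.0127) in 5 against 3 mice, whose groups again did not overlap (exact permutation p-value 0.0179, the smallest that design allows). With the hypothalamic marker score as a covariate, also chosen after seeing the data, it was -0.81 (SE 0.10, limma adjusted p-value 0.00103).

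Npy, which encodes the peptide itself, rested on 78 to 394 reads per library. In the libraries labelled WT it was lowest at 4.14 CPM (WT 4), had a median of 4.84 CPM (WT 5) and was highest at 6.32 CPM (WT 11). In those labelled cKO it was at 4.62 CPM (cKO 14), 5.10 CPM (cKO 9), 6.55 CPM (cKO 8), 6.76 CPM (cKO 12) and 7.03 CPM (cKO 13). The groups overlapped, with 3 of the 5 libraries labelled cKO above every WT library. The means were 5.09 ± 0.718 CPM (SD, n = 7) and 6.01 ± 1.08 CPM (SD, n = 5). The log2 fold change was 0.20 (SE 0.11, 95% interval -0.03 to 0.43, limma adjusted p-value 0.232). Exact permutation gave a p-value of 0.101. The authors' deposited table lists Npy at 0.24 on the log2 scale, with a false discovery rate of 0.441.

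Npy2r, the autoreceptor gene, varied most from mouse to mouse among the WT libraries, with a coefficient of variation of 28.7% against 13.7% to 14.2% for the other 3 genes. In the libraries labelled cKO it was 24.2%, below the 27.4% of Npy1r and above the 17.97% of Npy and 20.7% of Npy5r. It was lowest at 9.42 CPM (WT 4), had a median of 15.3 CPM (WT 1) and was highest at 19.9 CPM (WT 15). In the libraries labelled cKO it was at 9.80 CPM (cKO 12), 10.7 CPM (cKO 13), 13.97 CPM (cKO 9), 15.7 CPM (cKO 14) and 17.5 CPM (cKO 8). Every one of the 5 lay inside the WT range. The means were 14.8 ± 4.23 CPM (SD, n = 7) and 13.5 ± 3.28 CPM (SD, n = 5), and the log2 fold change was -0.10 (SE 0.19, 95% interval -0.52 to 0.32, limma adjusted p-value 0.771). The exact permutation p-value was 0.602. The log2 fold change of Npy1r, -0.76, lies outside the interval for Npy2r.

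Npy5r, which lies beside Npy1r, rested on 71 to 316 reads per library. In the libraries labelled WT it was lowest at 3.30 CPM (WT 5), had a median of 4.72 CPM (WT 15) and was highest at 5.15 CPM (WT 6). In those labelled cKO it was at 3.59 CPM (cKO 12), 4.23 CPM (cKO 13), 5.09 CPM (cKO 14), 5.66 CPM (cKO 8) and 6.08 CPM (cKO 9). The groups overlapped, with cKO 8 and cKO 9 above the highest WT library. The means were 4.57 ± 0.626 CPM (SD, n = 7) and 4.93 ± 1.02 CPM (SD, n = 5). The log2 fold change was 0.08 (SE 0.12, 95% interval -0.17 to 0.33, limma adjusted p-value 0.679). Exact permutation gave a p-value of 0.473.

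Whether Npy1r changed more than the other 3 genes was tested directly, by the difference of log2(CPM + 1) between genes within each mouse, over the 6 pairs. The change of Npy1r minus that of Npy5r was -0.84 (exact permutation p-value 0.00126, 0.00758 adjusted over the 6 pairs). The change of Npy1r minus that of Npy2r was -0.66 (exact permutation p-value 0.00505, adjusted 0.0101), and the change of Npy minus that of Npy1r was 0.95 (exact permutation p-value 0.00379, adjusted 0.0101). Among the 3 pairs without Npy1r the differences were 0.12 to 0.30 in size and the adjusted exact permutation p-values 0.338 to 0.540. The pairs share Npy1r, so these tests are not independent of each other.

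The same contrast shows in the ratio of the neighbouring receptors. Npy1r CPM was 3.17 to 4.13 times Npy5r CPM in the libraries labelled WT, with a mean of 3.63 ± 0.370 (SD, n = 7). It was 1.63, 1.67, 1.72, 2.08 and 2.65 times Npy5r in cKO 13, cKO 9, cKO 8, cKO 12 and cKO 14, with a mean of 1.95 ± 0.431 (SD, n = 5). The 2 groups of ratios stood further apart than the Npy1r levels did, and cKO 14 was again the library closest to WT. The ratio of Npy1r to Npy2r was 0.862 to 1.46 and 0.555 to 0.860, with WT 15 and cKO 14 almost touching.

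**Figure D2:**
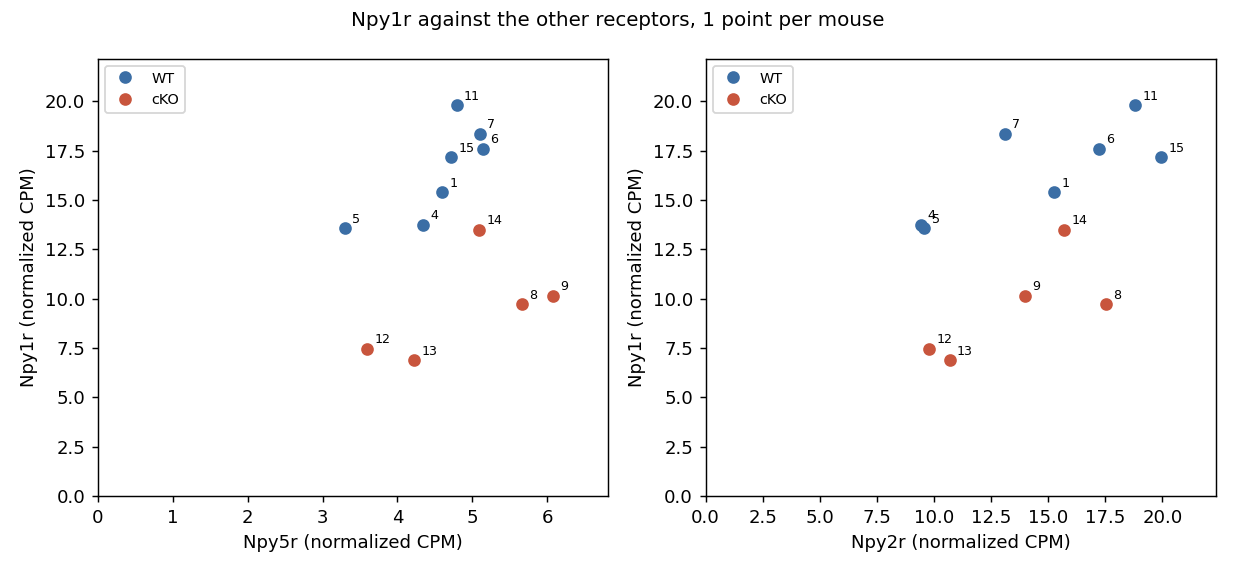
Npy1r CPM against Npy5r CPM (left) and against Npy2r CPM (right), 1 point per mouse with its number, WT in blue and cKO in red. The cKO points lie below WT points of a similar Npy5r or Npy2r level, and WT 4, WT 5, cKO 12 and cKO 13 sit at the low end of Npy2r.

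The 3 receptors were low in the same libraries of each group. In the 4 libraries low in hypothalamic markers, Npy2r was at 9.42 and 9.58 CPM (WT 4 and WT 5) against 13.1 to 19.9 CPM in the other WT libraries, and at 9.80 and 10.7 CPM (cKO 12 and cKO 13) against 13.97 to 17.5 CPM in the others labelled cKO. Npy1r was at 13.6 and 13.8 CPM against 15.4 to 19.8 CPM in WT, and at 6.88 and 7.46 CPM against 9.73 to 13.5 CPM in cKO. Npy5r was at 3.30 and 4.34 CPM against 4.59 to 5.15 CPM, and at 3.59 and 4.23 CPM against 5.09 to 6.08 CPM. All 3 receptors were thus lowest in those same 4 mice within each group. The same 4 libraries stood apart in markers of other cells. Their summed level of 5 oligodendrocyte markers was 8148 to 9383 CPM against 3765 to 6452 CPM in the other 8, and that of 5 endothelial markers 206 to 223 CPM against 169 to 203 CPM. The part of these cells in the receptor levels was not tested.

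Npy did not share this order. Within the libraries labelled cKO it was highest in cKO 12 and cKO 13, at 6.76 and 7.03 CPM, against 4.62 to 6.55 CPM in the other 3. Within WT it was at 4.14 and 4.84 CPM in WT 4 and WT 5, against 4.74 to 6.32 CPM. Without those 4 libraries the log2 fold change of Npy was 0.02 (SE 0.12, limma adjusted p-value 0.941), beside 0.20 in all 12. With the hypothalamic marker score as a covariate it was 0.21 (SE 0.11, limma adjusted p-value 0.183). Both choices were made after seeing the data, and they differ on whether the higher mean of Npy in cKO rested on those libraries. The part of tissue composition in the order of the mice was not tested.

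Correlations between the 4 genes were computed in the 7 WT libraries only, since 5 libraries labelled cKO are too few and Npy1r separates the groups. Npy1r and Npy5r had a Pearson r of 0.77 (exact permutation p-value 0.0163, 0.0976 adjusted over 6 pairs) and a Spearman rho of 0.86 (exact p-value 0.0238, adjusted 0.143). Npy1r and Npy2r had r = 0.80 (exact permutation p-value 0.0387, adjusted 0.116) and rho = 0.61 (exact p-value 0.167, adjusted 0.333). Without the 2 libraries farthest from the Npy1r median, r became 0.47 and 0.19. Leaving out the most extreme mice narrows the range of Npy1r and can lower r by itself, so this does not show that the relations rested on them. Leaving out 1 WT mouse at a time gave r from 0.74 to 0.84 with Npy5r and from 0.71 to 0.91 with Npy2r. The other 4 pairs had r from 0.18 to 0.67 with adjusted exact permutation p-values from 0.150 to 0.674, and no pair passed the adjustment. Among these, Npy2r with Npy5r went from r = 0.67 to -0.36 without the 2 libraries farthest from the Npy2r median. Without WT 11, Npy1r with Npy5r had r = 0.84 and passed (exact permutation p-value 0.00278, adjusted 0.0167), and Npy with Npy1r went from r = 0.56 to 0.24.

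Levels of different genes were compared per kilobase of annotated exon, from the union of GENCODE M21 exons. Npy, with 0.566 kb of exon, was highest in both groups, at 8.99 ± 1.27 CPM per kb (SD, n = 7) in WT and 10.6 ± 1.91 CPM per kb (SD, n = 5) in cKO. Npy1r and Npy2r followed in WT, at 4.78 ± 0.681 and 4.36 ± 1.25 CPM per kb, with overlapping ranges and Npy1r above Npy2r in 4 of 7 mice. WT 1 and WT 6 were not among the 4, though Npy1r CPM was 1.01 and 1.02 times Npy2r CPM there. Their order turned on the close exon lengths, 3454 bases for Npy1r and 3383 for Npy2r. In cKO, Npy2r was at 4.00 ± 0.969 CPM per kb and Npy1r at 2.76 ± 0.758 CPM per kb, with overlapping ranges and Npy1r above Npy2r in 0 of 5 mice. Npy5r was lowest per kb in all 12 mice, at 1.79 ± 0.245 and 1.93 ± 0.400 CPM per kb.

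Npy4r, Npy6r and Pyy, which belong to the same family, were at or near the detection limit. Npy4r, the pancreatic polypeptide receptor, had 2 to 12 reads per WT library and 0 to 3 reads per library labelled cKO. The totals of 36 and 7 reads are not scaled for depth, and 12 of the reads were in WT 1, the deepest library. In CPM the means of Npy4r were 0.177 ± 0.0604 (SD, n = 7) and 0.0652 ± 0.0476 (SD, n = 5). Its groups overlapped, and two-sided exact permutation of its CPM, a single value not adjusted for others, gave a p-value of 0.00505. Npy6r had 1 read in each group, and Pyy, which encodes peptide YY, had 0 reads in 12 libraries, which allows up to 0.0436 to 0.178 CPM. None of these reached the CPM minimum of the limma test. Dpp4, a surface peptidase that trims neuropeptide Y, was at 2.44 ± 0.506 CPM (SD, n = 7) and 2.29 ± 0.459 CPM (SD, n = 5), which differed on the log2 scale by -0.06 (SE 0.12, limma adjusted p-value 0.757).

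Genes that make, carry or transmit the peptide signal mostly did not pass the test. Of a list of 42 genes of the NPY system, 37 reached the CPM minimum, of which 1 rose, 1 fell and 35 did not pass, with a median log2 fold change of 0.02 beside 0.01 over all tested genes. Over all tested genes the share called was 14.1%, and the difference from the list was not tested. Lists were chosen with earlier results of these data known.

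The riser was Scg3, secretogranin III, which helps load dense-core vesicles. It was 239 ± 13.7 CPM (SD, n = 7) in WT and 268 ± 7.70 CPM (SD, n = 5) in cKO, a difference on the log2 scale of 0.17 (SE 0.04, limma adjusted p-value 0.0223), and its groups did not overlap. Among the other 9 processing and vesicle genes, the peptide convertase Pcsk2 had a log2 fold change of -0.22 (limma adjusted p-value 0.0821) and the amidating enzyme Pam 0.20 (limma adjusted p-value 0.131). Scg3 was not past the threshold without cKO 8 (limma adjusted p-value 0.0509) or with the thalamic markers as a covariate, where it was 0.10 (limma adjusted p-value 0.290).

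The gene that fell was Rgs4, a regulator that shortens signalling by inhibitory G proteins. It was at 238 ± 23.0 CPM (SD, n = 7) and 191 ± 24.4 CPM (SD, n = 5), with overlapping ranges and a log2 difference of -0.32 (SE 0.08, limma adjusted p-value 0.0249). It was not past the threshold without cKO 8 (limma adjusted p-value 0.0568) or without cKO 12 (0.0526). With the thalamic markers as a covariate it was -0.09 (limma adjusted p-value 0.499). The other 14 signalling genes, G protein subunits, arrestins, adenylyl cyclases and the potassium and calcium channels that these receptors act on, had log2 fold changes from -0.16 (Cacna1b) to 0.13 (Gnai3) and did not pass.

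Markers of neurons that make Npy did not pass the limma test, in 11 of 11 tested genes. Sst, somatostatin, which many Npy interneurons of the forebrain also make, was at 69.5 ± 19.6 CPM (SD, n = 7) and 46.7 ± 7.96 CPM (SD, n = 5), which differed on the log2 scale by -0.53 (SE 0.18, limma adjusted p-value 0.0602). Sst was past the threshold by edgeR on the recovered reads (adjusted p-value 0.0488) and in 2 of the 12 limma fits that left out 1 mouse, and the nitric oxide synthase gene Nos1 in 1 of the 12. Gad1, an enzyme of GABA synthesis, had a log2 difference of 0.47 (SE 0.20, limma adjusted p-value 0.135), and the leptin receptor Lepr 0.02 (SE 0.17, limma adjusted p-value 0.957).

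**Figure D3:**
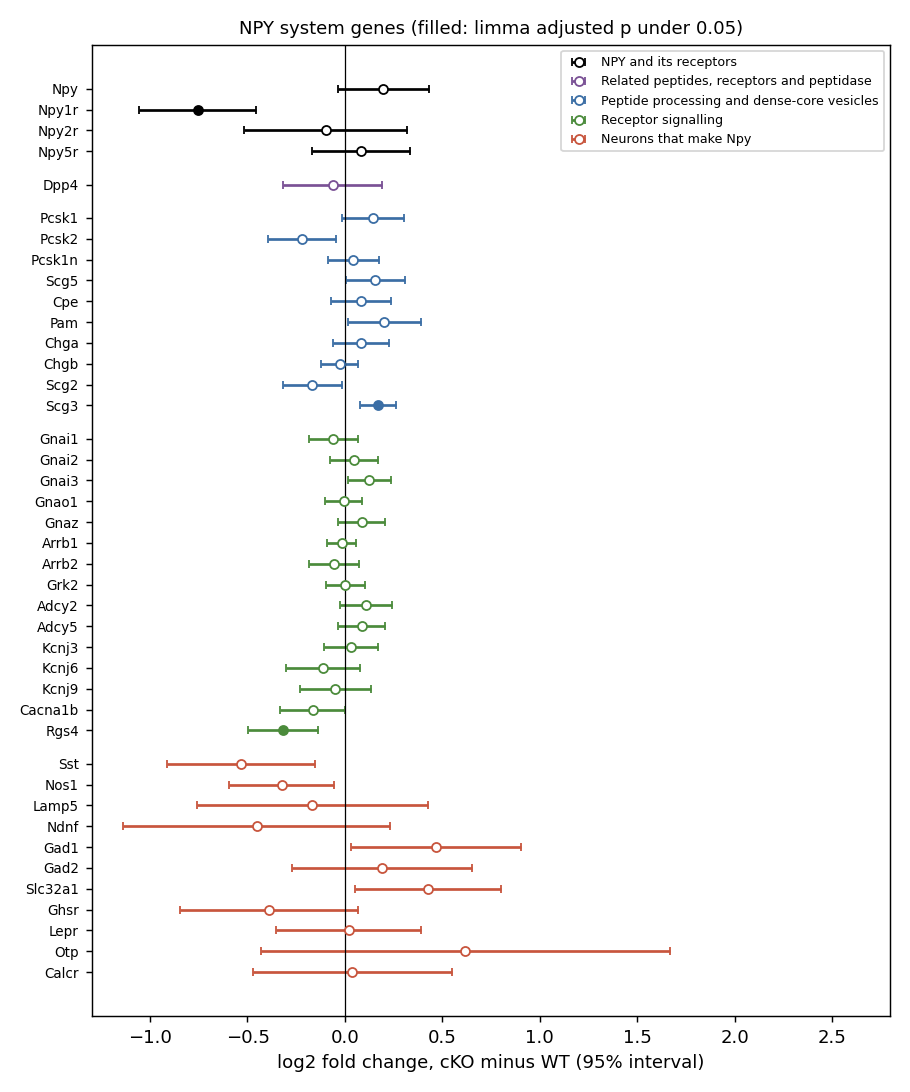
limma log2 fold change (cKO minus WT) with its 95% interval for Npy, its 3 receptors and the 37 tested genes of the NPY system, coloured by role, with filled points past an adjusted p-value of 0.05. Npy1r at -0.76 lies left of every other gene, and Scg3 and Rgs4 are the only other filled points.

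The genes whose levels moved most like each of the 4 were found by the Pearson correlation of log2(CPM + 1), taken as deviations from the group mean over 12 libraries, among 12187 or 12188 genes whose mean reached 5 CPM. They are the highest of many and come with no test. For Npy1r these were Brinp1 (r = 0.96), Gpd1l (0.95) and Grm5 (0.94), a metabotropic glutamate receptor. Their own log2 fold changes between the groups were -0.14, 0.01 and -0.12, and none passed the limma threshold, with adjusted p-values of 0.208, 0.925 and 0.526. These genes were picked for sharing the mouse-to-mouse order of Npy1r within the groups, so that order is not a result. The difference between their group changes and that of Npy1r was not tested.

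For Npy2r the closest genes were Rasgef1a (r = 0.98), Sytl4 (0.98) and Mamld1 (0.96). Of these, Rasgef1a was past the threshold and higher in the libraries labelled cKO (log2 fold change 0.22, limma adjusted p-value 0.0133), unlike Npy2r at -0.10. For Npy5r they included Pgm3 (0.96) and Ctu1 (0.95). For Npy they were Lpp (0.95), Nudt13 (0.94) and Tbc1d7 (0.90). Without the 2 libraries farthest from the group mean of the gene in question, r was 0.83 to 0.98 over the genes named here.

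**Figure D4:**
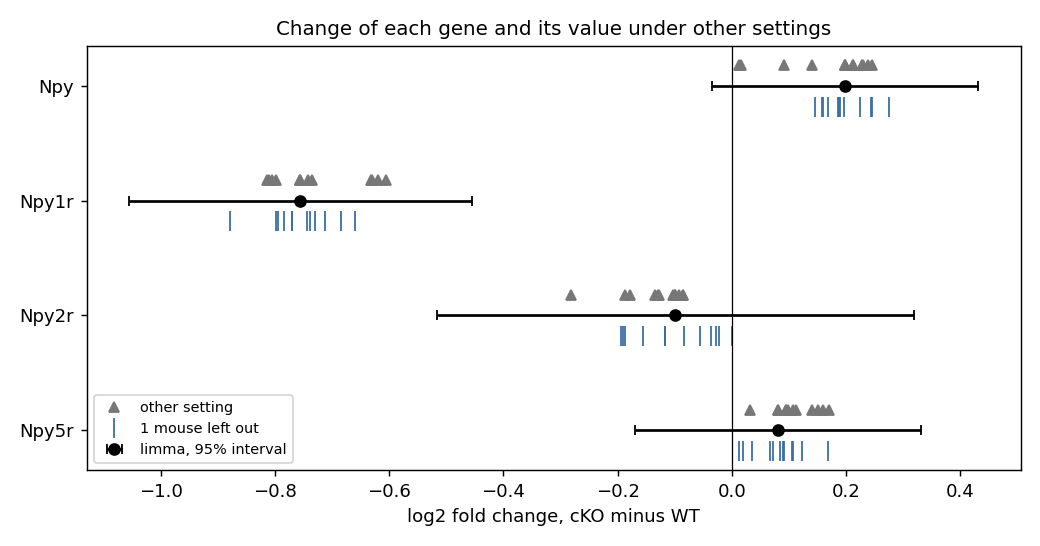
limma log2 fold change (cKO minus WT) of the 4 genes as black points with 95% intervals, with values under other settings as grey triangles and values with 1 mouse left out as blue ticks. Npy1r stays between -0.88 and -0.61 throughout, and the values of the other 3 lie between -0.28 and 0.27.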

How the data were processed

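Normalized CPM of 32494 genes in 12 libraries were deposited by the authors, who also deposited the log2 fold changes, p-values and false discovery rates of their own test. The submitters' processing notes name bcl2fastq, FastQC 0.11.9, STAR 2.7.9a, SAMtools, Subread and featureCounts. Genome build, annotation and strand setting are not given in the sources used here. Deposited CPM values were whole multiples (within 0.01) of 1 step per library for 100% of values above 0, so whole reads were recovered, and 0 library columns were left unused. The 31 pairs of libraries within a group differed beyond sampling noise (chi-square per degree of freedom 3.04 to 26.3 where a gene had 20 reads or more in the pair), and each was counted as 1 sample. Nothing beyond the mouse numbers says that the samples are separate animals, and the p-values measure the spread between these samples.

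limma (3.58.1, R 4.3.3; lmFit, eBayes with trend) was run on log2(CPM + 1) over the 15359 genes whose mean reached 1 CPM, with Benjamini-Hochberg adjustment and a threshold of 0.05. All 4 genes passed that minimum. Single values were compared by two-sided exact permutation over all splits of the mice. On the recovered reads, edgeR (4.0.16) called 2209 genes and DESeq2 (1.42.0) 2747. The fits were tested on simulated counts. The genes and lists were chosen with earlier results of these data known. Named list genes are those past the threshold, and Agrp, Npy4r and Npy6r. Pcsk2, Pam, Dpp4, Pyy, Sst, Nos1, Gad1, Lepr, Cacna1b, Gnai3, Stmn2, Col25a1, Foxj1, Ccdc153, Tmem212, Lef1 and Pomc were named after their values were seen. Ppy was not analysed here, and a gene that the likeness rule picked is not reported here.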

Additional observations from a re-analysis of the deposited data

Results flagged for a closer look

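Single libraries that lay far outside the other values of their group were looked for in 40 sets of values. There were 3, and chance would give 2. WT 1 had 68.7 M reads, above the next WT library at 24.0 M. The summed CPM of the 8 arcuate markers was 239.6 in cKO 14, above the next library labelled cKO at 119.6. Pomc held most of that sum, at 152.5 CPM in cKO 14. The same mouse had the highest Npy1r of its group and the lowest Npy, at 13.5 and 4.62 CPM. The summed CPM of 5 tanycyte and ependyma markers was 243 in WT 11, above the next WT library at 184. Col25a1 alone held 191.8 CPM of that sum, and by the mean log2 level of the list WT 11 (3.89) lay below WT 6 (3.91) and WT 15 (3.94). WT 11 also had the highest WT values of Npy and Npy1r, at 6.32 and 19.8 CPM. None of the values of the 4 genes themselves stood out in this way.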

How the results depend on the processing

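Npy1r was lower in the libraries labelled cKO under all 13 alternatives (2 chosen after seeing the data, by hypothalamic markers), with log2 fold changes from -0.81 to -0.61, and past the threshold in 11 of them. The exceptions were the thalamus score (-0.61, limma adjusted p-value 0.0808) and the thalamus and cortex scores together (-0.63, limma adjusted p-value 0.0639). Leaving out 1 mouse gave -0.88 (without cKO 14) to -0.66 (without cKO 13), past the threshold in all 12 fits. Npy, Npy2r and Npy5r were not past the adjusted p-value threshold in any setting that gave them a value. The exact permutation p-value of Npy, not adjusted, ran from 0.0364 (without cKO 14) to 0.230 (without cKO 13) when 1 mouse was left out. Over the alternatives Npy ranged from 0.01 (arrayWeights) to 0.24 (quantile normalization), Npy2r from -0.28 (thalamus and cortex scores) to -0.08 and Npy5r from 0.03 to 0.17. They ranged from 0.15 to 0.27, from -0.19 to 0.00 and from 0.01 to 0.17 when 1 mouse was left out, and Npy2r changed sign without cKO 12 (9.05e-04, limma adjusted p-value 0.998). Npy5r has no value under the minimum mean of 5 CPM. The difference between the changes of Npy and Npy5r was 0.12, changed sign without cKO 12 (-0.011) and reached 0.23 without cKO 9. The change of Npy minus that of Npy2r was 0.30, and 0.16 to 0.43 when 1 mouse was left out. The change of Npy2r minus that of Npy5r was -0.18, and -0.26 to -0.11 when 1 mouse was left out. Genes past the threshold numbered 2172, and 5126 with arrayWeights, 637 with the thalamus score, 1098 with both scores and 1158 (without WT 1) to 2302 (without WT 5) when 1 mouse was left out. For none of them was the cause tested. No paired analysis was possible because the 2 groups share 0 mouse numbers. Depth limits Npy and Npy5r most, at 71 to 394 reads per library.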
